A study of Mus musculus with 4 samples.

Results

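Start-side peaks are CLIP-seq peaks that lay within 2 kb of the end of a gene span from which a reader moving along the peak's own strand would enter the gene. A peak was a member when it overlapped exactly 1 gene span, when that gene was protein-coding and at least 10 kb long, and when the midpoint of the peak fell within that distance. The rule found 308 members among the 12061 peaks of the wild-type (WT) list and 439 among the 16939 peaks of the TRE-Msi2 list, 747 of 29000 in all. The rule used the strand of the peak and not the strand of the gene. Scores and sharing between the lists were not used to choose members.

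The peaks came from 4 CLIP-seq samples of mouse intestinal epithelial cells on a C57BL6 background, 2 WT and 2 TRE-Msi2. The labels describe the WT material as crypts, with no doxycycline recorded, and the TRE-Msi2 material as total epithelium taken after 24 hours of doxycycline, so genotype, tissue fraction and drug changed together and cannot be told apart. TRE denotes a promoter that doxycycline switches on, and the labels do not name the promoter or tissue that drives the activator. RNA and protein were joined by 2 pulses of 265 nm ultraviolet light at 400 mJ/cm2, precipitated with an antibody to MSI2 and cut from a membrane near 50 kD. The authors deposited 1 merged list for each genotype. Each list is thus 1 pooled sample with no spread between replicates, and no difference between genotypes was tested. Shares carry exact Clopper-Pearson 95% intervals, which cover counting error only.

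MSI2 belongs to the Musashi family of RNA-binding proteins, which bind single-stranded RNA through a pair of RNA recognition motifs and prefer short elements built around UAG. Musashi proteins are best known for binding the 3′ ends of mature messenger RNAs and changing their translation or stability, and in the intestine they are associated with stem cells and with tumour growth. CLIP-seq records where RNA was crosslinked to the protein, and a peak depends on the amount of the transcript as well as on its binding. No RNA abundance or input library was used here.

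The sequences that place these peaks at a transcription start are those of genes whose peak, on the gene's own strand, covered at least 15 of the bases just after a listed start. They are given from the RefSeq promoter windows of GRCm38.p6, 5′ to 3′ on the gene strand, as the overlap of the peak and the window. No more than 30 transcribed bases are shown, and capitals mark TAG, the DNA form of the Musashi core, wherever these letters occur. Such stretches were found in 16 genes, 6 of them in both lists, and 8 of the 16 held a TAG. In 4 genes, Pigr, Cyp3a11, Akr1c13 and Cyp4f14, a TAG lay in the transcribed bases; in Clca4b, Mgam and Mdh2 the capitals lie before the start, outside the transcript. A subset of 10 genes is shown, with and without TAG. In the first 5 genes below peaks of both lists covered the stretch. In the others a peak of 1 list alone covered it. The WT peak of Mgam had the same midpoint as the TRE-Msi2 peak, 270.5 nt inside the span, but was narrower and did not reach the stretch.
Pigr, chr1:130826624-130826713, plus strand: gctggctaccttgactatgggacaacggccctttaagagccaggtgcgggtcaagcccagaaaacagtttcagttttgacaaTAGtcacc
Clca4b, chr3:144932500-144932636, minus strand: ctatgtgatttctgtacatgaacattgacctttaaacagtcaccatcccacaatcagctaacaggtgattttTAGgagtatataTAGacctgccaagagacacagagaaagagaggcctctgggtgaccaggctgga
Clec2h, chr6:128662383-128662414, plus strand: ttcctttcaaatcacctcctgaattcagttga
Cyp3a11, chr5:145879805-145879824, minus strand: agttgTAGggagaacacaga
Plac8, chr5:100572156-100572181, minus strand: agaccacaggaccggttctgcccaac
Mgam, chr6:40628802-40628860, plus strand, TRE-Msi2 alone: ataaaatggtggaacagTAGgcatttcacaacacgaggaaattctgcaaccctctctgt
Mdh2, chr5:135778531-135778678, plus strand, TRE-Msi2 list alone: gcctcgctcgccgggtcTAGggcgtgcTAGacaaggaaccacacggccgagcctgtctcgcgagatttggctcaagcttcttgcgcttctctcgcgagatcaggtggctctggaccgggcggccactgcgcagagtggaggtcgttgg
Akr1c13, chr13:4191155-4191216, plus strand, TRE-Msi2 alone: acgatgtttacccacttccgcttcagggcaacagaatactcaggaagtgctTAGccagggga
Clrn3, chr7:135528625-135528717, minus strand, TRE-Msi2 alone: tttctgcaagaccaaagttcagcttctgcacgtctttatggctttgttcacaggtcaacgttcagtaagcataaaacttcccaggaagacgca
Aoah, chr13:20794132-20794161, plus strand, WT alone: ttctttttcctgaagtctttgctcagaggg
All stretches but those of Cyp3a11, Plac8 and Aoah ran from before the start into the transcript. The Pigr stretch held 60 bases before its start, that of Clca4b 107, that of Clec2h 2, that of Mgam 29, that of Mdh2 118, that of Akr1c13 32 and that of Clrn3 63. Peaks were called in bins of 200 nt, so a stretch shows what the bin covered and not where a crosslink lay.

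TAG was about as frequent in the windows of genes with own-strand members as in all windows. Searched on the gene strand only, TAG occurred in the 50 transcribed bases of 18 of 52 windows (34.6%) of genes with an own-strand start-side WT peak and of 31 of 100 windows (31.0%) of genes with such a TRE-Msi2 peak, against 33.7% of all 32851 windows. In whole windows of 300 bases the shares were 88.5% and 92.0%, against 92.4% of all windows. The longer forms, all of which contain TAG, were GTAGT and ATAGT with a single T before AGT, then GTTAGT and its variant ATTAGT, then GTTTAGT and its variant ATTTAGT. At least 1 of them occurred in 25% of the whole windows of either set and in 28.2% of all. In the transcribed part they occurred in 4 windows of the former (7.69%) and 7 of the latter (7%), against 4.26% of all. The median GC content of whole windows was 57.3% for the former and 60.3% for the latter, and 52.7% over all windows. Genes with opposite-strand members had 60% in WT and 59.2% in TRE-Msi2, with TAG in the transcribed part of 30.7% and 27.4% of windows. The set of all windows covers 27025 genes of any type and length, and GC content was not matched. A gene with several starts has several windows.

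Most start-side peaks did not lie at the start of their gene. The RefSeq promoter table gave a strand for 11080 of the 13962 protein-coding genes of at least 10 kb. Of the WT members whose gene had a listed strand, 192 of 236 (81.4%, 95% interval 75.8 to 86.1) lay on the opposite strand, and 44 lay on the gene's own strand. Of the TRE-Msi2 members, 247 of 338 (73.1%, 68.0 to 77.7) lay on the opposite strand and 91 on the own strand. Over all peaks in these genes the opposite strand held 16.9% in WT and 14.5% in TRE-Msi2. A start-side peak on the opposite strand is, by geometry and as far as the deposited strand is right, antisense to the gene and within 2 kb of its annotated 3′ end. The strand of these peaks was not checked on reads, and some of the same bins were called on different strands in the lists. If the strand of such a peak were wrong, the peak would be an own-strand peak at the 3′ end of its gene. The name of gene starts therefore holds for the own-strand members, and the others are called opposite-strand start-side peaks here. A further 72 WT and 101 TRE-Msi2 members lay in genes with no listed strand.

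Read by the gene rather than by the peak, both ends of a gene had few opposite-strand peaks beside own-strand ones. Within 2 kb of the gene's own 3′ end, the opposite strand held 192 of 2215 peaks (8.67%, 7.53 to 9.92) in WT and 247 of 2756 (8.96%, 7.92 to 10.1) in TRE-Msi2. In the interior of the genes the shares were 23.2% and 18%. Within 2 kb of the gene's own 5′ end, 6 of 50 WT peaks (12%) and 7 of 98 TRE-Msi2 peaks (7.14%) were on the opposite strand. The opposite strand thus held a smaller share at the 3′ ends than inside the genes. It was still the larger group among start-side peaks, with 192 and 247 members beside 44 and 91 own-strand ones. Compared with even placement along the genes, own-strand peaks were few at the 5′ ends and opposite-strand peaks were many at the 3′ ends.

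Own-strand peaks were sparse at starts. Of 4291 own-strand WT peaks, 44 (1.03%, 0.746 to 1.37) lay in the first 2 kb, where even placement along the same genes would put 5.98%. Of 6399 own-strand TRE-Msi2 peaks, 91 (1.42%, 1.15 to 1.74) lay there, against 5.87% by even placement. The last 2 kb held 47.1% of own-strand peaks in WT and 39.2% in TRE-Msi2. Of the opposite-strand peaks, 192 of 871 (22.0%, 19.3 to 24.9) in WT and 247 of 1087 (22.7%, 20.3 to 25.3) in TRE-Msi2 were start-side, where even placement would put 3.77% and 3.82%. Without regard to the gene's strand, start-side peaks made up 4.78% of the 6449 WT peaks and 4.68% of the 9374 TRE-Msi2 peaks over such genes, against 5.59% and 5.56% by even placement.

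**Figure D1:**
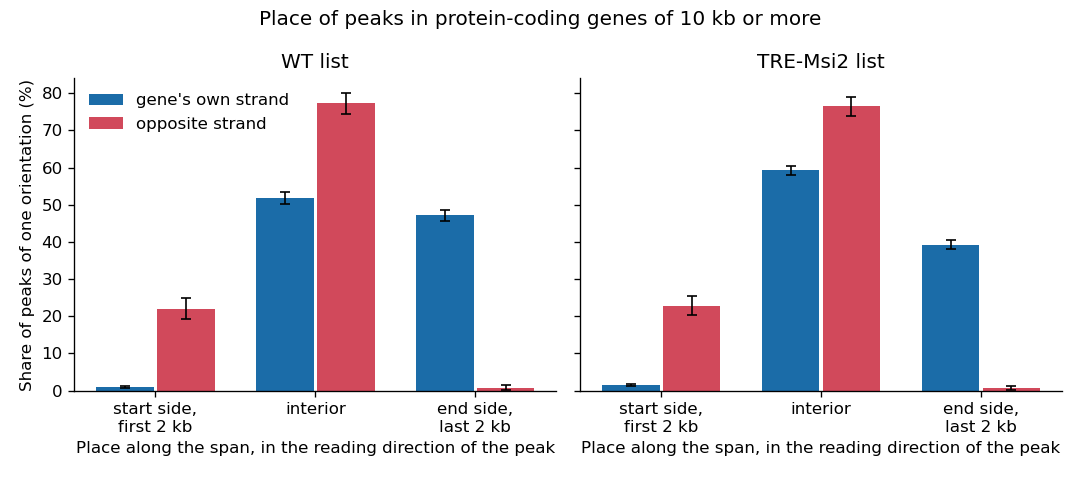
Share of peaks of each orientation (percent, bars from 0 with exact 95% binomial intervals) in the first 2 kb, the interior and the last 2 kb of the gene span as read along the peak's strand, for the WT list (left) and the TRE-Msi2 list (right). Own-strand peaks (blue) were at 1.03% and 1.42% on the start side and opposite-strand peaks (red) at 22.0% and 22.7%, while on the end side the order was turned.

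The orientations also differed in distance from the end of the span. Own-strand members had a median midpoint distance of 442 nt in WT and 699.5 nt in TRE-Msi2, and opposite-strand members of 823 nt and 846.5 nt. Of the own-strand members, 23 of 44 WT peaks (52.3%) and 37 of 91 TRE-Msi2 peaks (40.7%) lay within 500 nt, compared with 54 of 192 (28.1%) and 73 of 247 (29.6%) of the opposite-strand members. Within 250 nt of any listed start of their gene lay 14 own-strand WT members and 19 own-strand TRE-Msi2 members. Most own-strand members were therefore in the first 2 kb but away from the listed starts. The own-strand peaks at the 3′ ends had median distances from that end of 677.5 nt and 696.5 nt.

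**Figure D2:**
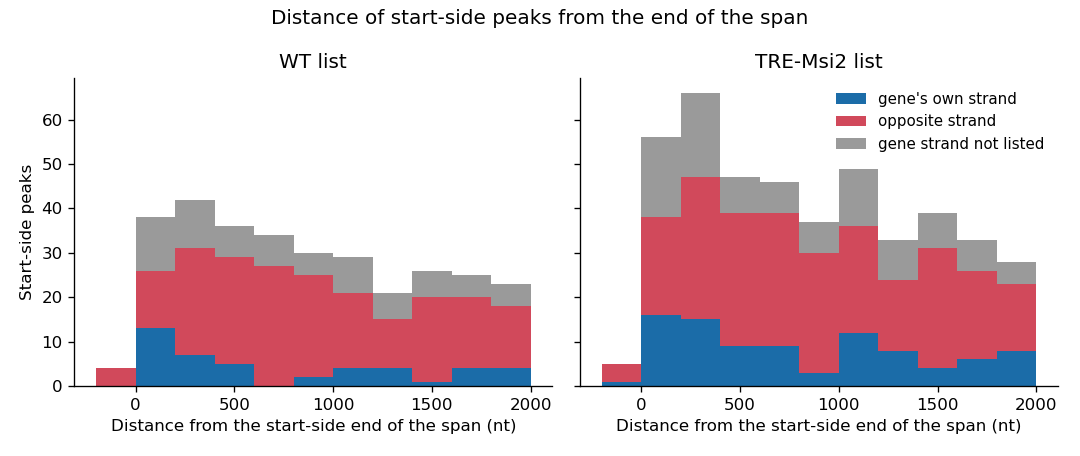
Number of start-side peaks by the distance of the midpoint from the span end on the start side (nt, bins of 200 nt; values below 0 lie outside the span) in the WT list (left) and the TRE-Msi2 list (right), stacked by orientation. Own-strand peaks (blue) reached their largest count in the first bin inside the span, and opposite-strand peaks (red) were the largest class in the later bins.

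The highest scores of own-strand members included those of genes of the gut epithelium and of Msi2. The score is the authors' own and behaves as reads per bin. Scores are not compared between lists, whose depth is unknown. Pigr, the receptor that carries polymeric immunoglobulins across epithelium, had the highest score of all members in either list, 66 in WT and 96 in TRE-Msi2, at chr1:130826624-130826823 and 39.5 nt inside the span. Rbp2, an intestinal retinol-binding protein, scored 45 and 59 at chr9:98490582-98490781, 144.5 nt inside its span. Clec2h, a C-type lectin-related gene, scored 40 and 49.3 at its first peak. It held a further peak of 21.5 in WT and further ones of 33.75 and 33 in TRE-Msi2.

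Msi2, the gene of the precipitated protein, held several own-strand peaks at its start. In the TRE-Msi2 samples it is also the gene named with the doxycycline promoter. Whether induced transcripts added reads to these peaks was not tested. Msi2 runs on the minus strand of chromosome 11 over 378.9 kb and its span ends at position 88718306. The peak at chr11:88717287-88717486 scored 41 in WT and 68 in TRE-Msi2. The peak at chr11:88716487-88716686 scored 28 and 57. A further one, at chr11:88717687-88717886 and 519.5 nt inside the span, was in the TRE-Msi2 list alone with 24. The other 2 lay 919.5 nt and 1719.5 nt inside. Msi1, its paralog, held no start-side peak in either list.

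Several genes of enterocyte absorption held own-strand members. The list was chosen with earlier results of these data known. All 15 of its genes were long enough and had a peak in both lists. In the WT list 5 of the 15 held an own-strand start-side peak, whereas 42 of 2605 genes with a listed strand and any peak did (1.61%). In the TRE-Msi2 list 7 of the 15 did, beside 80 of 3155 genes (2.54%). Sis, the sucrase-isomaltase of the brush border, scored 23 in WT and 47 in TRE-Msi2 at 1084.5 nt from the start. Apob, the apolipoprotein of chylomicrons, scored 21 and 40 at 1665.5 nt. The peptidase gene Enpep scored 24 and 39, the lactase gene Lct 18 and 23, and the maltase gene Mgam 16 and 25. The glucose transporter gene Slc5a1 (24) and the peptidase gene Dpp4 (22) had such a peak in the TRE-Msi2 list alone.

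The other gene lists held few members. Of 28 RNA-binding and RNA decay genes, 22 had any peak in each list, and Msi2 and Cpeb4 (21 in WT, 29 in TRE-Msi2), which regulates cytoplasmic polyadenylation, held own-strand start-side peaks in both. Elavl1, which binds AU-rich elements, had an opposite-strand one of 20 in the TRE-Msi2 list. Of 13 Wnt pathway genes, 8 WT and 9 TRE-Msi2 had any peak. Gsk3b, the kinase of the beta-catenin destruction complex, scored 23 and 35.5 on its own strand. Lgr5, the stem cell receptor, scored 20 and 34 at chr10:115451345-115451544, and its strand was not listed. The lists of 23 chromatin and transcription genes, of 26 growth signalling kinases and adaptors and of 12 BMP and TGF-beta genes held 0 start-side peaks. Of their genes 13 and 18, 15 and 14, and 5 and 10 had any peak in WT and TRE-Msi2. Over all long genes with any peak, 295 of 3232 (9.13%) and 415 of 3925 (10.6%) held a start-side peak, and lists of this size are too small to read a count of 0 against that share. Of 19 junction and cytoskeleton genes, Cdh17, an intestinal cadherin with no listed strand, had one of 30 in the TRE-Msi2 list.

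Other own-strand members, named after their values were seen, lay in genes of varied function. Mdga2, a cell adhesion gene best known from neurons, scored 33 in WT and 37 in TRE-Msi2, and Gm14461 scored 28 and 31. Cyp3a11, a cytochrome P450 of xenobiotic metabolism, scored 22 in WT and 40 in TRE-Msi2. The glucuronosyltransferase gene Ugt2b34 scored 29.3 and 42, and Slc10a2, the ileal bile acid transporter gene, scored 16 and 35.5. Hsp90b1, the chaperone gene of the endoplasmic reticulum, scored 29 and 52, and the mitochondrial chaperonin gene Hspd1 scored 22 and 29. P4hb, a protein disulfide isomerase gene, had 31 and Mdh2, the mitochondrial malate dehydrogenase gene, had 28, both in the TRE-Msi2 list alone. The Mdh2 midpoint lay outside the span, at -18.5 nt. Plac8 scored 18 and 46, and Clca4b, of the calcium-activated chloride channel regulator family, scored 27 and 36.5. Lsr, a lipoprotein receptor gene, had a peak of 17 in the WT list at 187.5 nt that no TRE-Msi2 peak overlapped, and one of 20 in the TRE-Msi2 list at 1387.5 nt.

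The highest opposite-strand members also lay in genes of varied function. Pik3r5, a regulatory subunit gene of phosphoinositide 3-kinase, scored 46 in WT and 56 in TRE-Msi2 at chr11:68496699-68496898. Zfp488, a zinc finger gene, scored 41.2 and 65.9 over chr14:33967215-33968214 and had a second peak of 23 and 27. Gmeb1, which binds glucocorticoid modulatory elements, scored 38.5 and 59, and Dcaf1, a substrate receptor of a ubiquitin ligase, scored 33 and 49. Med16, a Mediator subunit gene, scored 34 and 40.5, and the potassium channel gene Kcnj16 scored 34 and 37. Tacr1, the neurokinin receptor gene, scored 62 in the TRE-Msi2 list, the second highest opposite-strand score there, and no WT peak overlapped it on its strand.

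The host genes of the orientations differed in the rest of their peaks. Of genes with an own-strand start-side peak, 34 of 42 (81.0%, 65.9 to 91.4) in WT and 63 of 80 (78.8%, 68.2 to 87.1) in TRE-Msi2 held a further own-strand peak outside the first 2 kb. Of genes with an opposite-strand start-side peak, 23 of 187 (12.3%, 7.96 to 17.9) and 38 of 241 (15.8%, 11.4 to 21.0) held one. Over all 11080 long protein-coding genes with a listed strand, 19.4% held such a WT peak and 23.7% such a TRE-Msi2 peak. Genes with an interior opposite-strand peak stood at 23.0% and 33.9%. Hosts of opposite-strand start-side peaks thus stood below the share of all genes. In all, 187 of 2605 genes with any WT peak (7.18%) and 241 of 3155 with any TRE-Msi2 peak (7.64%) were such hosts.

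**Figure D3:**
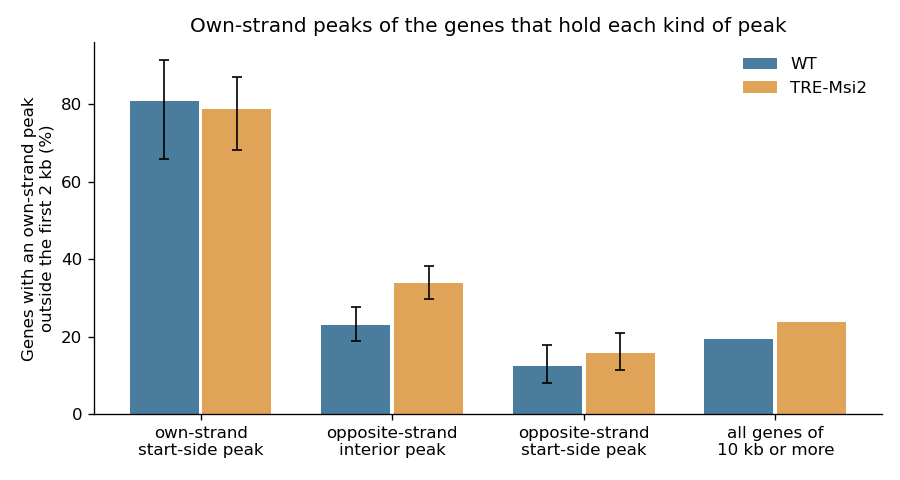
Share of genes (percent, bars from 0) that held an own-strand peak outside the first 2 kb, for genes with an own-strand start-side peak, an opposite-strand interior peak or an opposite-strand start-side peak, and for all long protein-coding genes with a listed strand, in the WT (blue) and TRE-Msi2 (orange) lists with exact 95% binomial intervals on the first 3 groups. Own-strand hosts stood at 81.0% and 78.8%, and opposite-strand hosts at 12.3% and 15.8%. The group of all genes includes genes with no peak.

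An opposite-strand member was usually the single peak of its gene. That held for 154 of 192 WT members (80.2%) and 188 of 247 TRE-Msi2 members (76.1%), against 8 of 44 (18.2%) and 15 of 91 (16.5%) of the own-strand members. The own-strand member was the gene's highest peak in 15 of 44 (34.1%) and 27 of 91 cases (29.7%). In WT the opposite-strand member was so in 174 of 192 cases (90.6%), where a single peak counts as the highest. These shares compare the orientations with each other, and no share over all peaks stands beside them. The gene of an own-strand member also had an own-strand peak in its last 2 kb in 34 of 44 cases (77.3%) in WT and 56 of 91 (61.5%) in TRE-Msi2. Own-strand members were thus mostly 1 of several peaks along a transcript. Slc7a8, an amino acid transporter gene, and Pcdh17, a protocadherin gene, were the 2 genes that held members of both orientations.

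Opposite-strand members had a gene end close behind them about as often as such positions in general. A gene transcribed on the peak's strand ended within 5 kb behind the peak for 38 of 192 WT members (19.8%) and 47 of 247 TRE-Msi2 members (19.0%), and for 19.3% of 9869 long genes with a position set at the members' median distance. For own-strand members the counts were 3 of 44 (6.82%) and 5 of 91 (5.49%), and 10.2% of 9827 genes. No same-strand gene ended within 20 kb behind 62.0% and 62.8% of the opposite-strand members, which was also close to the share of such positions in general. Single cases did lie close behind a neighbour: the Dcaf1 peak was 0.659 kb past the end of Rbm15b, the Med16 peak 2.201 kb past Cfd and the Zfp488 peak 2.996 kb past Rbp3. The own-strand Pigr peak was 0.721 kb past the end of Fcamr. These 4 cases were picked after their values were seen.

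The median score of start-side peaks lay slightly above that of their list, though in WT its interval of 19 to 21 reached the list median. In the WT list they ranged from 11.7 to 66 with a median of 20, and the median over the list was 19. In the TRE-Msi2 list they ranged from 17 to 96 with a median of 27, and the median over the list was 24.7. At or above the median of their list were 180 of 308 WT members (58.4%) and 284 of 439 TRE-Msi2 members (64.7%). Peaks tied at the median are counted here, so these shares are not to be read against an even split. The WT list held 6449 peaks over long protein-coding genes, and 3458 of them reached its median. The TRE-Msi2 list held 9374 such peaks, and 4693 reached its median. The opposite-strand members had medians of 20 and 27. Own-strand members had medians of 18.3 (interval 17 to 22) and 24 (23 to 27), below the list medians but with intervals that include them. Among single-bin peaks the medians on the start side were 20 and 27, in the interior 19 and 24, and at the end 19 and 24.

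**Figure D4:**
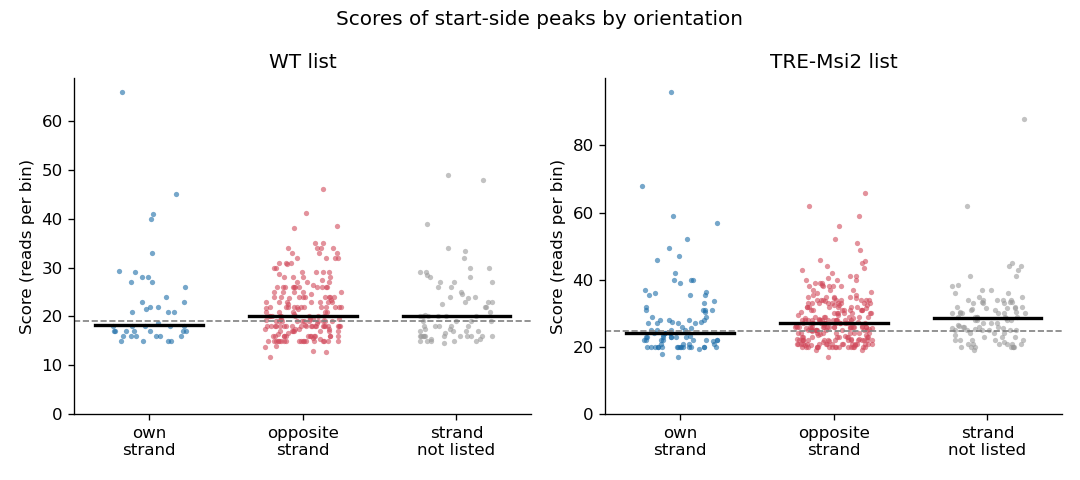
Score of every start-side peak (reads per bin, linear axes from 0 that differ between panels) by orientation in the WT list (left) and the TRE-Msi2 list (right), with the median of each class as a bar and that of the whole list as a dashed line. The highest point in either panel is the own-strand Pigr peak at 66 and 96. The own-strand medians of 18.3 and 24 lie below the list medians of 19 and 24.7, which their intervals include.

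Start-side peaks were narrow. A single 200-nt bin made up 86.4% of WT and 84.1% of TRE-Msi2 members, compared with 68.2% and 66.8% of interior peaks and 60.4% and 55.8% of end peaks. The widest members reached 1000 nt and 1200 nt. The p-value in the list was above 0.05 for 29 WT and 37 TRE-Msi2 members, of which 0 were single-bin, so the p-value of joined bins was not read as a significance. By the strand of the peak, 178 of 308 and 255 of 439 members lay on the plus strand.

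The members fell in 295 genes in WT and 415 in TRE-Msi2, of which 257 were in both. The shared genes were 87.1% of the former and 61.9% of the latter. In own-strand members 37 genes were in both, 88.1% of 42 and 46.2% of 80. In opposite-strand members 161 were in both, 86.1% of 187 and 66.8% of 241. Several start-side peaks occurred in 12 WT and 20 TRE-Msi2 genes.

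By position, most WT members recurred in the longer TRE-Msi2 list. Sharing meant at least 1 base of overlap on the same strand. Of the WT members 270 of 308 (87.7%, 83.5 to 91.1) were overlapped, against 90.8% of all 6449 WT peaks over such genes, and the own-strand (88.6%) and opposite-strand (86.5%) classes were close to each other. Of the TRE-Msi2 members 266 of 439 (60.6%, 55.8 to 65.2) were overlapped, against 57.4% of all 9374. In that list the orientations lay further apart, with 39 of 91 own-strand members (42.9%, 32.5 to 53.7) and 165 of 247 opposite-strand members (66.8%, 60.6 to 72.6). Interior TRE-Msi2 peaks differed in the same direction, at 50.3% on the own strand and 58.6% on the opposite strand. The shared positions were mostly identical: 229 members of each list had the same start and end in the other.

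Sharing was more frequent at high scores in the TRE-Msi2 list. In 4 score classes bounded by that list's quartiles of 21, 24.7 and 30, its members were overlapped in 34.0%, 31.4%, 66.7% and 83.5% of cases from the lowest class to the highest. The own-strand members stood at 26.3%, 18.5%, 33.3% and 85.2%, and the opposite-strand members at 39.1%, 39.0%, 75.6% and 85.1%. In the top class the orientations thus had almost the same share. In the WT list the top score class of opposite-strand members was overlapped in 81.2% of cases, below their 95.9% in the second class, while interior and end peaks of the top class stood at 97.3% and 97.5%. All 13 own-strand WT members of the top class were overlapped.

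**Figure D5:**
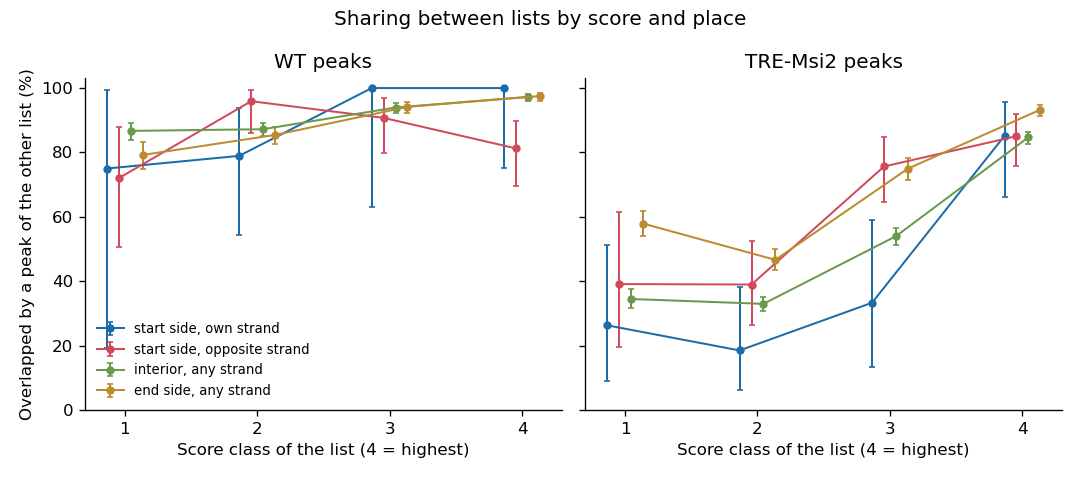
Share of peaks (percent, with exact 95% binomial intervals) overlapped on the same strand by a peak of the other list, by the 4 score classes of the list itself, for WT peaks (left) and TRE-Msi2 peaks (right); lines join the start-side classes and the interior and end peaks. Opposite-strand start-side peaks of the top WT class stood at 81.2%, below the 97.3% and 97.5% of interior and end peaks, and the own-strand points rest on few peaks.

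Many unshared members had a peak of the other list over the same bases on the other strand. Of the 38 WT members with no same-strand overlap, 25 (65.8%) had such a strand-switched partner, which is 8.12% of all WT members, and 17 of the 25 had identical coordinates. Of the 173 unshared TRE-Msi2 members, 32 (18.5%) had one, which is 7.29% of all members, and 24 had identical coordinates. In the opposite-strand class there were 20 in WT (10.4%) and 20 in TRE-Msi2 (8.10%). In members with no listed gene strand there were 5 of 72 (6.94%) and 12 of 101 (11.9%). In the own-strand class there were 0 of 44 and 0 of 91, with upper interval bounds of 8.04% and 3.97%. A partner of an own-strand member would be an opposite-strand peak near the gene's 5′ end. Only 6 WT and 7 TRE-Msi2 peaks were of that kind, so the 0 cannot show that own-strand members switched less often. The shares were 1.74% and 1.08% for all interior peaks, 4.16% and 2.28% for opposite-strand interior peaks, and 1.27% and 0.803% for end peaks. Strand-switched partners thus occurred throughout the genes, and among start-side members they lay in the opposite-strand and unlisted classes. Within a list, peaks of both strands overlapped in 0 cases for WT and 7 for TRE-Msi2, of which 0 were start-side.

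All 6 of the highest unshared WT members and 5 of the 6 highest unshared TRE-Msi2 members had a strand-switched partner. The WT peak of Dusp22, a phosphatase gene, scored 38 and the TRE-Msi2 peak on the other strand 34. For Ndufaf7, a gene of complex I assembly, the scores were 31 and 34, and for Pfkfb3, a regulator of glycolysis, 29 and 38.7. Slc39a14, a zinc transporter gene with no listed strand, had 34 with 25.3, and Lmbrd1 and Myo1e had 29 with 29.5 and 29 with 32.5. The bins of these genes were called in both lists, on opposite strands. Of the TRE-Msi2 members, Mbd4, a DNA glycosylase gene, scored 38.5 with a WT partner of 36, and 6030458C11Rik scored 36 with 36. Tacr1 at 62 had a WT partner of 22, Atp7a, a copper transporter gene, had 52 with 22.7, and Ppm1k, a mitochondrial phosphatase gene, had 36.5 with 20.7. A430033K04Rik, at 45 in the TRE-Msi2 list alone, had no partner on either strand. These members count as found in 1 list when the strand is required and as shared when it is not. What moved the call to the other strand was not tested.

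The members with no listed gene strand included some of the highest scores. Tm4sf20, a tetraspan membrane protein gene, scored 48 in WT and 88 in TRE-Msi2 at 135.5 nt from the span end. Pik3c3, the class III phosphoinositide 3-kinase gene, scored 49 and 62 at its highest start-side peak, and held 3 such peaks in WT and 2 in TRE-Msi2. Prelid3a scored 39 and 41 in its single peak. With the strand taken from the other peaks of the gene, Tm4sf20 and Pik3c3 lay on the own strand. That inference gave the listed strand for 2672 of 3064 genes where both were known (87.2%). With inferred strands added, own-strand members made up 23.4% of 265 WT peaks and 30.4% of 382 TRE-Msi2 peaks, against 18.6% and 26.9% by listed strands alone. Genes with start-side peaks alone gave no inference, so the added members are a selected part of the unlisted ones. Of the 72 unlisted WT members, 44 (61.1%) were their gene's only peak in that list.

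The 2 kb limit divided peaks of like scores. Just inside it in the WT list lay Abcd2 (22, at 1998.5 nt), Aptx (27, at 1989.5 nt) and Ciapin1 (18, at 1982.5 nt), and just outside Cubn (15, at 2002.5 nt), Zfp607b (25, at 2002.5 nt) and Zfp933 (23, at 2005.5 nt). In the TRE-Msi2 list Abcd2 (29, at 1998.5 nt), Clec2h (33, at 1997.5 nt) and Tacr1 (62, at 1997.5 nt) lay inside, and Zfp933 (31, at 2005.5 nt), Gm33887 (48.4, at 2014.5 nt) and Erich1 (24, at 2018.5 nt) outside.

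The labelled tissue was set beside marker genes with any peak. Enterocyte and Paneth cell markers had peaks in both lists, so these markers cannot tell crypts from total epithelium. All 7 enterocyte and all 4 Paneth cell markers had a peak in both lists, as did 6 of 7 epithelial markers in the WT list, where Krt18 had none, and 7 of 7 in the TRE-Msi2 list. Goblet cell markers had a peak in 4 of 5 cases in both, and enteroendocrine markers in 3 and 4 of 4. Tuft cell markers had a peak in 1 of 3 cases in WT and 0 of 3 in TRE-Msi2, where Dclk1, Pou2f3 and Trpm5 had none. Of the immune markers Cd74 alone had one in both lists, and 0 of 7 stromal markers had one. Of the enterocyte markers 3 in WT and 4 in TRE-Msi2 had a start-side peak, beside 9.13% and 10.6% of all long genes with any peak. These were Sis, Apob and Mgam, with Dpp4 in TRE-Msi2. They are also in the enterocyte absorption list, so the counts are not separate.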

How the data were processed

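CLIP-seq with an MSI2 antibody was made from 2 WT and 2 TRE-Msi2 samples. Use of cutadapt and TopHat, and of the builds mm9 and mm10, is recorded in the submitters' processing notes. For the versions, the entry is: not given in the sources used here. Names of the deposited files describe Piranha peaks called after removal of duplicate reads, merged by genotype. Each deposited peak has a position, a strand, a score that behaves as a mean number of reads per 200-nt bin, and a p-value, as the authors' peak caller gave them. The total reads behind the lists are unknown.

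Peaks were placed on gene spans of a RefSeq table of GRCm38.p6 (mm10) with 49997 placed genes, 21900 of them protein-coding. That table has no strand or exons, so exonic, intronic and UTR shares were not computed. Gene strand came from the RefSeq promoter table of the same build (32851 windows for 27025 genes), which also gave the sequences. A peak was end side when its midpoint lay within 2 kb of the end towards which its strand runs, and interior when it lay near neither end. Even placement is the mean, over the peaks, of 2 kb divided by the length of the gene. Positions are 1-based. The steps were run in Python 3.11.15 with numpy 2.4.6, pandas 2.3.3 and scipy 1.17.1, and tested on simulated data: 200 of 200 placed peaks were given the right class and 100 of 100 shared peaks were found.

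No test between lists was made, since each list is 1 pooled sample. The members and gene lists were chosen with earlier results of these data known. Genes were named as the 10 highest-scoring members of each list, the 5 genes with most members, the 8 highest shared and 6 highest unshared members, the 3 nearest the limit on either side, Msi1 and Msi2, and up to 4 examples of each gene list. The orientation classes, their highest members, the strand-switched examples and further enterocyte genes were chosen after values were seen. Alternatives covered the distance, gene length, score, peak width, strand, other spans, overlap and list length.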

Additional observations from a re-analysis of the deposited data

How the results depend on the processing

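Of 98 recomputed values, 59 moved by less than their counting interval or 1.5 times and 39 moved further. Values are given for the WT and then the TRE-Msi2 list. With a limit of 1 kb there were 184 and 257 start-side peaks in 181 and 248 genes, 157 in both, at 2.85% and 2.74% of peaks over long genes; with 3 kb that share was 5.97% and 5.94%. With genes of 20 kb or more it was 4.26% and 3.97%. With peaks at or above the list median there were 180 and 284 peaks in 172 and 274 genes, 141 in both; 81.7% and 51.4% were overlapped, the median score was 24 and 30.5, and in the TRE-Msi2 list the own-strand share was 21.4% and the start-side share 6.05%. With single-bin peaks the start-side share was 6.25% and 6.16%, and 77.8% of WT members were overlapped. With own-strand peaks alone, by listed or inferred strand, there were 62 and 116 peaks in 57 and 102 genes, 49 in both, at 0.961% and 1.24% of peaks, with median scores of 18.8 and 25.2, and 44.8% of TRE-Msi2 members were overlapped; the own-strand share has no value there. With overlap on either strand, 95.8% and 67.9% were shared. With only the highest TRE-Msi2 scores kept, as many as there were WT peaks, 79.5% and 67.9% were.

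An overlap of 50%, noncoding spans allowed and inferred strands, of which the last and noncoding spans for the own-strand share were chosen after seeing the data, left their values within these limits. No paired analysis was possible because each deposited list pools both samples of a genotype, and leaving out a replicate could not be run for the same reason. Depth is unknown, so a peak missing from a list was not detectable at that list's threshold, not absent.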
